A study of Mus musculus with 4 samples.

Results

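Dntt, Ly6d, Endou and Myl10 were described across RNA libraries of group 3 innate lymphoid cells (ILC3s), innate lymphocytes that lack rearranged antigen receptors and secrete IL-22 and IL-17. These 4 genes, of 18191 gene names in both deposited tables, were chosen because they were nearly absent from CD93-positive ILC3s. ILC3s came from the small intestine of mice at steady state and were sorted as live, CD45 low, CD3 negative and CD90.2 high, among other markers. One pair of libraries compared ILC3s of WT mice with and without surface CD93, sorted after 12 h in culture with no stimulus added. The other held ILC3s of WT mice and of IL-17D-deficient mice (Il17d-KO, called KO here); the labels repeat the culture step for them, and the sources used here do not say whether it applied, nor give age, strain or the number of animals. Each of the 4 groups was a single library, which leaves every difference without a replicate check and without a p-value. All 4 genes were listed in the CD93 pair and 3 in the KO and WT pair; Endou was not analysed in the latter.

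Developing lymphocytes assemble antigen receptor genes by V(D)J recombination: RAG1 and RAG2 cut the DNA, and end-joining proteins seal it. Dntt encodes terminal deoxynucleotidyl transferase (TdT), a DNA polymerase that adds nucleotides without a template at these joints and is a classical marker of immature B and T cells. Ly6d encodes a GPI-anchored surface protein of the LY6 family that marks B-lineage-biased lymphoid progenitors in bone marrow and is also made by some epithelia. Endou encodes a poly(U)-specific endoribonuclease, and Myl10 a myosin regulatory light chain known from precursor lymphocytes. CD93 is itself known as the AA4.1 antigen of early B-lineage progenitors.

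In mm10, with GENCODE M21 gene models, Dntt (ENSMUSG00000025014.13) lies on chromosome 19 from 41029275 to 41059525 on the plus strand. Ly6d (ENSMUSG00000034634.7; 74762056 to 74763620) and Endou (ENSMUSG00000022468.12; 97711015 to 97731339) both lie on the minus strand of chromosome 15, far apart. Myl10 (ENSMUSG00000005474.9) lies on chromosome 5 from 136693146 to 136701094 on the plus strand. No other annotated gene overlapped any of the 4, so reads of an antisense partner do not enter their values under this annotation.

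The 250 bases before the start are shown for Dntt and Myl10, the 2 of the 4 symbols that matched RefSeq's promoter table (GRCm38.p6). The Dntt window is chr19:41029025-41029274 and the Myl10 window, for the first of 3 listed starts, is chr5:136692896-136693145, both on the plus strand; the other starts of Myl10 lie downstream. Capitals mark matches on either strand to CANNTG, the E-box bound by E proteins, or to TGGGAA, the core bound by Ikaros.
Dntt: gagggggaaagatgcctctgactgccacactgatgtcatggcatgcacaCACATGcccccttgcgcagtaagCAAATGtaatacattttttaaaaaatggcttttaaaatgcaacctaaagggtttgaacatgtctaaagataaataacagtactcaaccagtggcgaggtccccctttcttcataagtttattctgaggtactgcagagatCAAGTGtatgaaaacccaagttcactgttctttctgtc
Myl10: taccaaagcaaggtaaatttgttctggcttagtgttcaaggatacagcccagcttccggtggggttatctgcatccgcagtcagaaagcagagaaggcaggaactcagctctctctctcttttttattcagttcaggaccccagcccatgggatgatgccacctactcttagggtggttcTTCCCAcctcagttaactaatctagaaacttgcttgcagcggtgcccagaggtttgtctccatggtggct
The Dntt window held 3 E-box matches and 0 of TGGGAA; at least 3 E-box matches occurred in 12.2% of the 32851 windows of this length in the table. The Myl10 window held 0 E-box matches and 1 of TGGGAA, which 21.6% of windows held at least once. Neither window held TATAAA (12.4% of windows) or the RUNX core TGTGGT (14% of windows), searched on both strands, and no 2 matches overlapped.

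Values are FPKM, fragments per kilobase of gene scaled to library size, as the authors deposited them, and are compared within a pair only. Read counts were recovered from FPKM and gene length; over the genes with whole values they summed to 11406363 for CD93-positive, 10740639 for CD93-negative, 13205542 for WT and 13546862 for KO ILC3s. ILC3 genes were present in all 4 libraries, with Il23r, a chain of the IL-23 receptor, at 47.1 (CD93-positive), 42.7 (CD93-negative), 258 (WT) and 243 (KO). Cd93 itself stood at 155 (CD93-positive) and 79.9 (CD93-negative), so its transcript was present in both sorted populations, and at 43.5 (WT) and 20.5 (KO). The genotype labels could not be compared with Il17d, which was not analysed here.

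CD93-negative ILC3s contained transcripts of all 4 genes, and CD93-positive ILC3s nearly none. Together the 4 genes had 1103 recovered reads in the CD93-negative library and 3 in the CD93-positive one. These are the values by which the genes were chosen, and they are given as a description.

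Dntt stood at an FPKM of 0.0372 (1 read) in the CD93-positive library and at 20.5 (555 reads) in the CD93-negative one. The ratio was 551 with a 95% exact counting interval of 98.5 to 21816. Such intervals cover counting error only, since amplified reads that carry no molecular identifier can stem from one molecule, and they compare libraries, not conditions. Dntt was the most abundant of the 4 per length in the CD93-negative library, above 75.2% of the genes with an FPKM of at least 1 there.

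Ly6d stood at 0.115 (1 read) and 13.6 (119 reads) in the same order, a ratio of 118 (20.8 to 4708). Myl10 had 0.0710 (1 read) and 12.9 (183 reads), a ratio of 182 (32.2 to 7219). Their FPKM in the CD93-negative library exceeded those of 63.0% and 61.3% of the genes at 1 or above, so both were mid-range genes there.

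Endou had 0 reads in the CD93-positive library and 246 reads, an FPKM of 7.60, in the CD93-negative one. Taking 3 reads as the most that a count of 0 allows in the CD93-positive library, it was at least 81.5-fold higher. It was the lowest of the 4 per length, above 44.1% of genes. The reads behind 3 of the 4 low values were a single read each, so the size of each ratio is poorly bounded above.

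On the scale log2((FPKM + 1)/(FPKM + 1)), which understates differences of low genes, the CD93-negative values were higher by 4.38 for Dntt, 3.71 for Ly6d, 3.70 for Myl10 and 3.10 for Endou. All 4 of 4 exceeded 1, a 2-fold difference, as did 1.94% of the 10117 genes measured, those reaching an FPKM of 1 in at least one of the libraries (4.43% in either direction). Among all measured genes Dntt, Ly6d and Myl10 had the 3 highest differences and Endou the fifth. Since the genes were picked on this contrast, these ranks describe the choice. Over the whole table, CD93-negative values exceeded the 2-fold limit upward for 196 genes and downward for 252 (43.8% upward). With both libraries scaled to a common sum the counts were 732 and 290 (71.6% upward), and the median of all genes moved from -0.04 to 0.15. In bulk libraries, fewer cells of a type and less RNA per cell cannot be told apart.

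**Figure D1:**
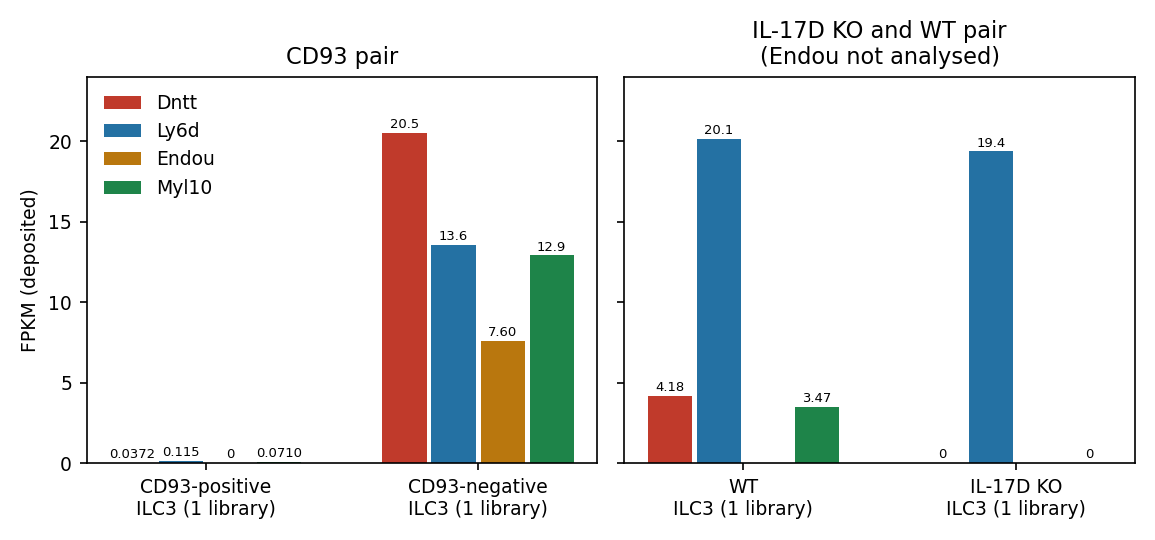
FPKM of Dntt, Ly6d, Endou and Myl10 in the 4 libraries, 1 bar per gene and library with its value printed; there are no error bars because each group is 1 library, and bars are comparable within a panel only. In the CD93 pair all 4 genes stand between 7.60 and 20.5 in CD93-negative ILC3s and at 0.115 or less in CD93-positive ILC3s, whereas in the other pair Ly6d stands near 20 in both libraries and Dntt and Myl10 are at 0 in KO.

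**Figure D2:**
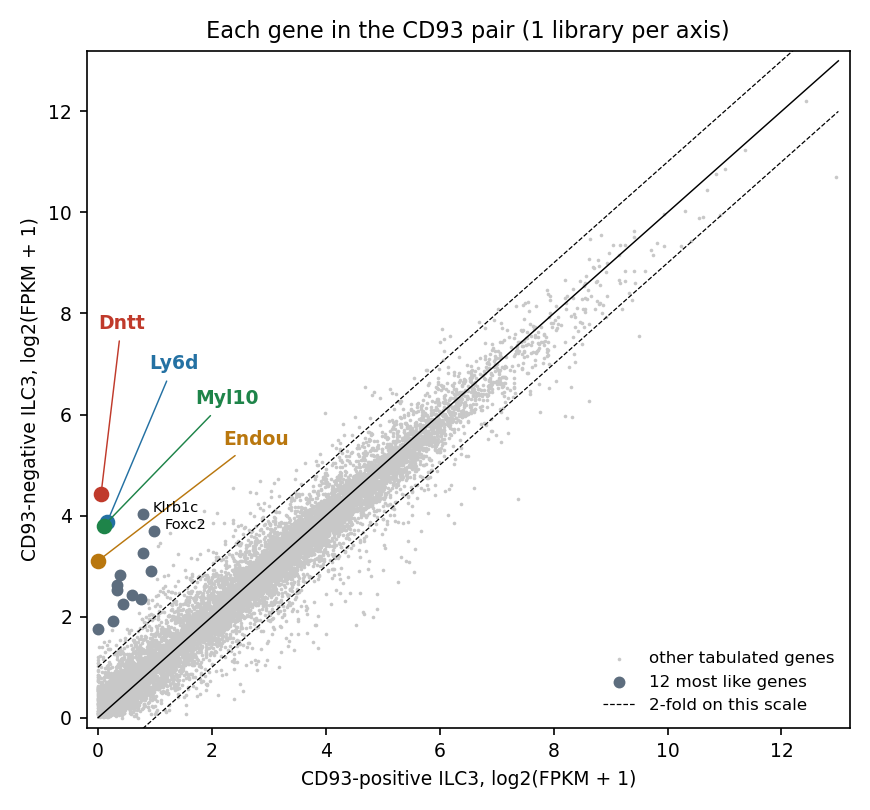
Each tabulated gene of the CD93 pair as a point, with log2(FPKM + 1) in CD93-positive ILC3s on the x axis and in CD93-negative ILC3s on the y axis; the solid line is equality and dashed lines are 2-fold on this scale. The 4 genes lie along the left edge, and the 12 genes most like them lie above the upper 2-fold line.

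Near-complete absence from 1 library was rare in the CD93 pair. Of 8442 genes with at least 100 recovered reads in CD93-negative ILC3s, 7 (0.0829%) had at most 1 read in CD93-positive ILC3s. They were the 4 genes and Arpp21 (165 reads and 1), Dnah8 (211 and 0) and Nwd1 (113 and 0), named after their values were seen. The 4 genes were chosen on these values, so their place among the 7 describes the choice. Arpp21 encodes an RNA-binding phosphoprotein of immature thymocytes, Dnah8 an axonemal dynein heavy chain and Nwd1 a NACHT and WD repeat protein. In the opposite direction the count was 0 of 8410 genes with at least 100 reads in CD93-positive ILC3s. The FPKM of the 3 added genes in CD93-negative ILC3s were 0.803, 0.667 and 0.794, all under 1, so the 4 genes were the more abundant ones per length.

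The genes most like the 4 were taken by a rule: an FPKM of at most 1 in CD93-positive ILC3s and the highest log2 difference, a likeness over 2 libraries. Klrb1c, which encodes NK1.1, came first (FPKM 0.721 and 15.3; log2 difference 3.25), between Myl10 and Endou in rank. Foxc2, a forkhead factor gene (0.971 and 11.9), Il12rb2, a chain of the IL-12 receptor (0.720 and 8.58), the copine gene Cpne7 (0.308 and 6.04) and Dpp4, which encodes CD26 (0.257 and 5.14), followed. Ly6c1, Pmel, Pak1, Baiap3, Fam183b, Scn4a and Dusp2 completed the 12, with differences of 2.21 down to 1.60. Of these 12 genes, 11 had from 5 to 32 reads in CD93-positive ILC3s, where the 4 genes had 0 or 1; Fam183b had 0 reads there and 16 in CD93-negative ILC3s. Ly6c1 (5 and 95 reads) is a near-identical copy of Ly6c2 and can share reads with it, so its value is uncertain.

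TdT's relatives and partners had near-equal values in the CD93 pair. Of 6 genes, 0 differed by 2-fold, as did only 4.43% of all measured genes. The median log2 difference of the 6 was -0.08, beside -0.04 for all measured genes. Polm, the polymerase gene closest to Dntt, stood at an FPKM of 22.5 (CD93-positive) and 18.2 (CD93-negative). Dnttip1, which encodes a TdT-interacting protein, had 18.5 and 18.1.

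The recombination machinery showed low values of RAG genes beside shared end-joining genes. Of 14 measured genes for V(D)J recombination and end joining, 0 were 2-fold apart (median -0.03), as were only 4.43% of all measured genes. Rag1 had 1.03 (80 reads) and 1.81 (141 reads), a ratio of 1.75 (1.32 to 2.33). Rag2 had 0 reads and 19 reads (FPKM 0.471), at least 6.29-fold higher in CD93-negative ILC3s. Per length, Dntt in the CD93-negative library thus stood above both RAG genes. Lig4, the ligase of end joining, went the other way, with 3.56 and 2.43, a ratio of 0.682 (0.550 to 0.844).

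The wider LY6 family and the myosin light chain genes had mixed or near-equal values. Of 7 measured LY6 and uPAR family genes, Ly6c1 was at least 2-fold higher and Ly6a and Plaur were lower in CD93-negative ILC3s (median -0.45). Ly6a, which encodes Sca-1, stood at 588 and 273 in the CD93-positive and CD93-negative libraries. Ly6e, the most abundant of the family in both libraries, had 832 and 607. Of 9 measured genes of myosin light chains, their heavy chains and kinases, 0 were 2-fold apart (median -0.01). Myl12a, a widely expressed regulatory light chain, had 45.4 and 33.9. Both counts stand beside 1.94% of all measured genes at least 2-fold higher and 2.49% lower (4.43% in either direction). With so small a share, 0 of 9 says little about the myosin genes.

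Genes of immature thymocytes were mostly higher in CD93-negative ILC3s. Of 33 listed genes, 29 were analysed, and 26 of these had a higher FPKM in CD93-negative ILC3s, as did 48.8% of all tabulated genes. Among the 21 measured ones, 9 were at least 2-fold higher, against 1.94% of all measured genes, and 1 was lower, against 2.49% (median 0.88). The list was chosen with earlier results of these data known, so these counts are a description. The 95% counting interval of the read ratio lay above 1 for 25 of 28 genes with recovered reads and below it for 2, against 25.1% and 29% of all such genes, a count chosen after seeing the data. The list shares 5 genes with the list of mature T cells and 4 with that of ILC precursors. It shares 2 each with the lists of recombination and of B lineage genes. With the lists of early lymphoid progenitors, plasmacytoid dendritic cells and the ILC3 core it shares 1 each.

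Several list genes with few or no reads in CD93-positive ILC3s stayed under an FPKM of 1 in CD93-negative ILC3s. Themis, which encodes a T cell receptor signalling protein, had 0 reads in the CD93-positive and 91 reads (FPKM 0.661) in the CD93-negative library, at least 30.1-fold higher. Arpp21 had a ratio of 164 (29.0 to 6513). Ptcra, the pre-T cell receptor alpha gene, had 0 and 10 reads (FPKM 0.661), at least 3.31-fold higher.

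The adaptor gene Trat1 had 0 and 57 reads, at least 18.9-fold higher, and the aquaporin gene Aqp11 14 and 105 reads, a ratio of 7.45 (4.25 to 14.1). Spo11, a topoisomerase-like gene of meiosis also transcribed in thymocytes, had 11 and 79 reads, a ratio of 7.13 (3.78 to 14.9). Of the 29 genes, 5 (Rag2, Ptcra, Themis, Trat1 and Tdrd5) were at 0 reads in CD93-positive ILC3s and 0 of them in CD93-negative ILC3s. Over all 12546 tabulated genes, 0.454% were listed at 0 in the CD93-positive library and 0.0159% in the other.

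The 9 list genes at least 2-fold higher were Ccr9, Cd3g, Cd3d, Cd24a, Lef1, Lck, Spo11, Hes1 and Trat1. Cd3d stood at an FPKM of 0.141 (CD93-positive) and 1.87 (CD93-negative), Cd3g at 1.12 and 4.67, and the kinase gene Lck at 23.1 and 53.2. Among transcription factor genes, Lef1 had 0.709 and 2.86, a ratio of 4.03 (3.11 to 5.28), and Bcl11b 2.11 and 4.70, while Tcf7 was nearly equal at 112 and 120. The gut-homing and thymic chemokine receptor gene Ccr9 had 3.64 and 13.5. Cd4, among the more abundant genes of the list in CD93-positive ILC3s, had the opposite direction, with 27.3 and 3.01. Cd8a, Cd8b1, Cd2 and Tctex1d1 were not analysed in this pair.

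**Figure D3:**
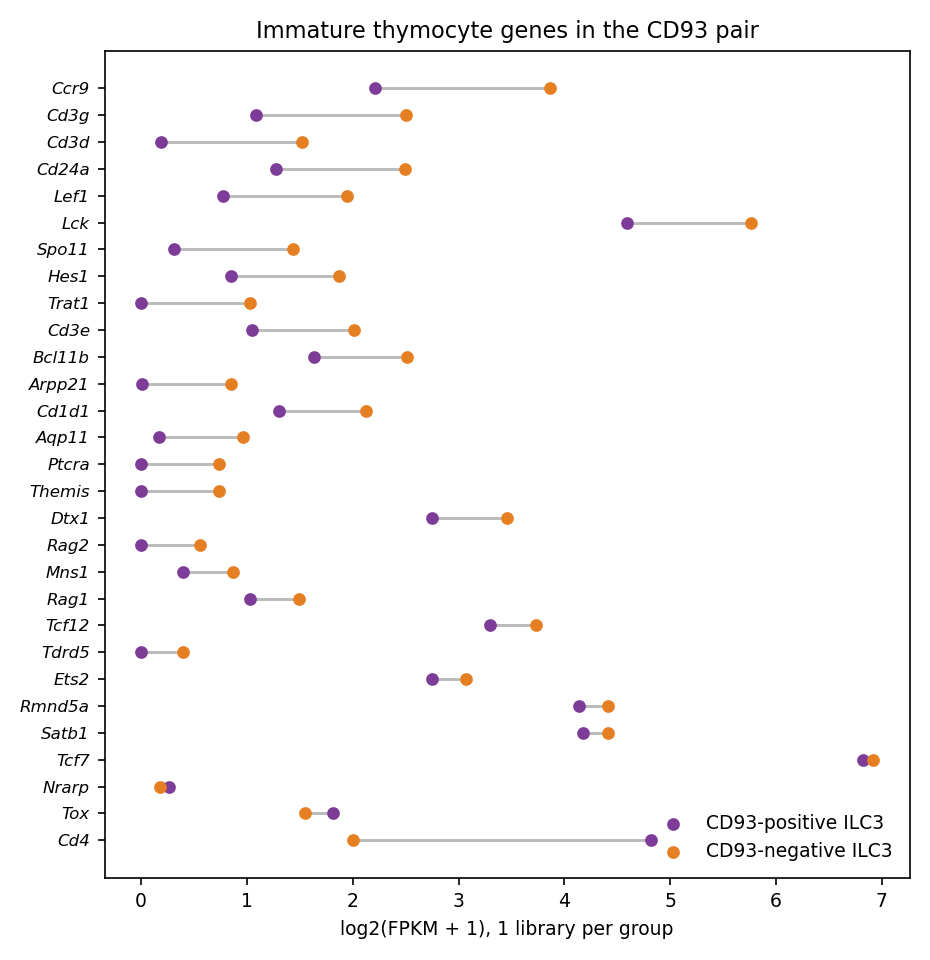
The 29 analysed genes of the immature thymocyte list in the CD93 pair, ordered by log2 difference; each dot is log2(FPKM + 1) in 1 library, purple for CD93-positive and orange for CD93-negative ILC3s, joined by a line. Orange lies to the right for 26 genes, and Cd4, Tox and Nrarp are the 3 with purple to the right.

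Lists of progenitor cells held genes that differed in both directions, so the 4 genes are called by their names here. Of 14 measured genes of early lymphoid progenitors, Sox4 (1.07 and 4.40) and Cd27 (0.917 and 4.04) were at least 2-fold higher in CD93-negative ILC3s and Ly6a was lower (median 0.05). Flt3, the receptor gene that marks these progenitors, had 0.442 and 0.920, and Cd34 was not analysed. Of 7 measured genes of B lineage specification and the pre-B receptor, Cd24a, Bach2 and Lef1 were higher and Blk and Akap12 lower (median 0.87). Ebf1, which commits cells to the B lineage, had 4 and 6 reads, and Pax5, Vpreb1, Vpreb2, Vpreb3, Igll1 and Cd79a were among those not analysed in this pair. Of 12 genes of ILC precursors, Il18r1 and Lef1 were higher and Pdcd1 was lower. Zbtb16, which encodes PLZF, had 4.61 and 9.76. These counts stand beside 1.94% of all measured genes at least 2-fold higher in CD93-negative ILC3s and 2.49% lower.

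Other cell types' lists also differed between the CD93 libraries. Of 14 genes of ILC1s and NK cells, 8 were at least 2-fold higher in CD93-negative ILC3s (median 1.50), with summed FPKM of 555 (CD93-positive) and 1085 (CD93-negative). For mature T cells the count was 2 of 5, Cd3d and Cd3g, with sums of 20.5 and 24.7. Most of these sums was Lat, an adaptor gene (17.4 and 13.5); without it, a sum added after seeing the data, the other 6 genes came to 3.11 and 11.2, higher beside the 4 genes. Among those 6, Cd5 went the other way, with 21 and 9 reads. Trac, Trbc1, Trbc2 and Cd8a were not analysed in this pair. For intestinal epithelium it was 1 of 8 (28.8 and 48.7), the gene being Epcam, and for plasmacytoid dendritic cells 1 of 9 (1352 and 1123), with Siglech not analysed. For mature B and plasma cells it was 0 of 2 (35.3 and 31.6), and for macrophages, monocytes and dendritic cells 0 of 9, with 1 lower (80.4 and 71.0). The ILC3 core list had 5 of 21 genes lower and 0 higher (10340 and 3565); without the cytokine gene Il22, at 7934 and 1655, the sums, likewise added later, were 2406 and 1909. Over all measured genes the shares were 1.94% higher and 2.49% lower. The part of any such cells in the values of the 4 genes was not tested.

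Most genes next to the 4 on the chromosome were under the 2-fold limit, as were most measured genes. Of 16 neighbours, 10 had a higher FPKM in CD93-negative ILC3s, against 48.8% of all tabulated genes. These neighbours are the 2 nearest analysed protein-coding genes on each side. Of the 13 measured, 1 was at least 2-fold higher in CD93-negative ILC3s, against 1.94% of all measured genes. This was Rapgef3, 13.4 kb from Endou, with an FPKM of 0.0539 (4 reads) and 1.63 (122 reads); it encodes EPAC1, a cAMP-activated exchange factor. The other neighbour near Endou, Rpap3 at 5.2 kb, had 4.66 and 5.63. Beside Dntt, the nearest gene, Tll2 at 23.2 kb, had 0 and 0.287, Zfp518a had 5.08 and 5.05 and Tm9sf3 41.0 and 36.6. Lynx1, 9.0 kb from Ly6d, had 0.110 and 0.364, and Cux1, the nearest analysed gene to Myl10, 7.27 and 9.27.

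In the KO and WT pair, which the choice of genes did not use, the 3 analysed genes did not move together. Ly6d stood at an FPKM of 20.1 in WT (391 reads) and 19.4 in KO ILC3s (389 reads). The counting interval of its KO to WT ratio, 0.961, ran from 0.833 to 1.11 and so included 1. Per length Ly6d stood above 74.7% of the genes at 1 or more in WT and 74.3% in KO ILC3s.

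Dntt had an FPKM of 4.18 in WT ILC3s and was listed at 0 in KO ILC3s. With the gene length used, its WT value gave 249.88 reads, not a whole number within 0.02, so no read count or fold is given for it. Myl10 had 109 reads (3.47) in WT and 0 in KO ILC3s, at least 37.6-fold lower in KO against 3 reads. On the log2 scale the KO values were lower by 2.37 for Dntt and 2.16 for Myl10 and by 0.05 for Ly6d.

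Such zeros were frequent in this pair. At least 2-fold lower in KO ILC3s were 2 of the 3 genes and 12.7% of the 12376 measured genes (29.3% in either direction). Of 7135 genes with at least 100 recovered reads in WT ILC3s, 277 (3.88%) had 0 reads in KO ILC3s. Of 2078 genes with 100 to under 300 reads in WT ILC3s, 241 (11.6%) had 0 reads in KO ILC3s, and of 1968 such genes in KO ILC3s, 240 (12.2%) had 0 in WT ILC3s. Zeros of this kind thus occurred in both directions among genes with about as many reads as Myl10.

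**Figure D4:**
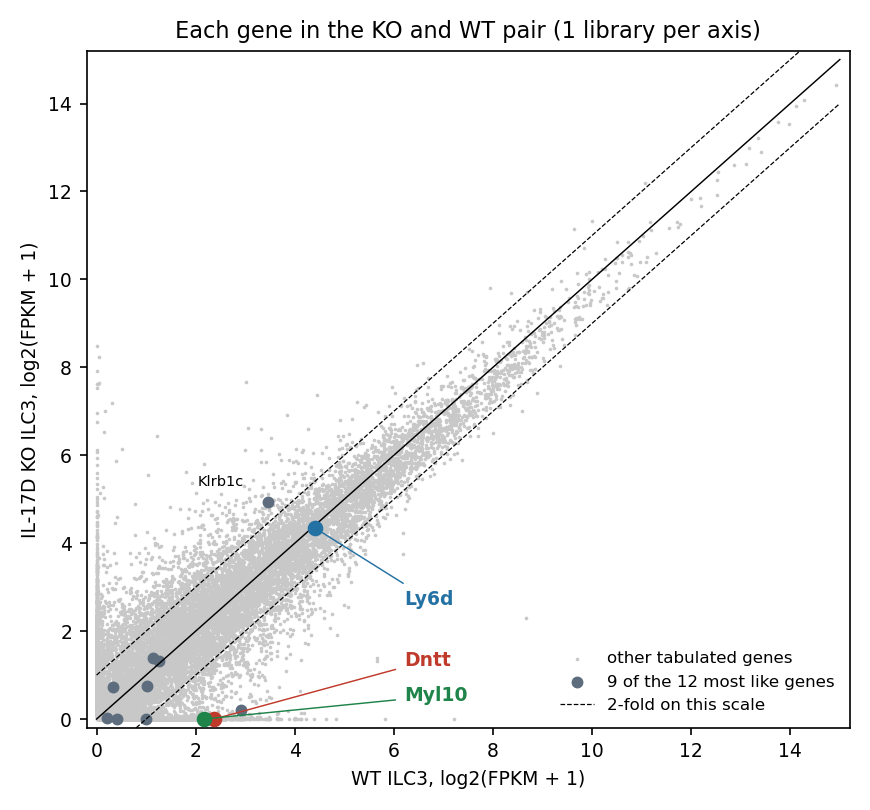
Each tabulated gene of the KO and WT pair as a point, with log2(FPKM + 1) in WT ILC3s on the x axis and in KO ILC3s on the y axis; lines are as in the plot of the CD93 pair. Ly6d lies on the line of equality, while Dntt and Myl10 lie on the x axis among many other genes at 0 in KO.

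Of the 16 chromosomal neighbours analysed in this pair, 12 had a higher and 4 a lower FPKM in KO ILC3s. The median log2 difference of all measured genes was 0.01. For these directions the share over all genes is not given here, so the counts of neighbours are a description. Of the 14 measured, 4 were at least 2-fold higher, namely Entpd1, Jrk, Ly6a and Slc48a1, and 0 lower, against 16.6% and 12.7% of all measured genes.

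Thymocyte genes differed in both directions in this pair, with 16 at a higher and 9 at a lower FPKM in KO ILC3s. The share of all genes with a higher FPKM in KO ILC3s is not given here, so these counts are a description. Of the 25 analysed, 5 were at least 2-fold higher, near the 16.6% of all measured genes, and 1 was lower, against 12.7% (median 0.22 beside 0.01). The higher ones included Cd1d1 (FPKM 1.89 in WT and 11.0 in KO), Ccr9 (3.87 and 11.6) and Cd3d (18.9 and 40.1). The lower one was Spo11, with 121 reads in WT and 0 in KO ILC3s. Themis had 1.41 and 1.77, and Rag1, Rag2, Ptcra and Arpp21 were not analysed here.

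Of 8 measured recombination and end-joining genes, 1 was at least 2-fold higher and 2 were lower, against 16.6% and 12.7% of all measured genes: Xrcc5 was higher (6.81 and 14.7) and Xrcc4 (9.34 and 3.05) and Polm lower in KO ILC3s. Polm had 223 reads in WT and 0 in KO ILC3s, like Dntt and Myl10 a gene listed at 0 in KO. Of the 12 genes most like the 4, 9 were analysed in this pair, with 4 higher and 5 lower in KO ILC3s. Klrb1c had 10.03 and 29.5, the direction opposite to Dntt and Myl10, and Pak1, a kinase gene, 6.53 and 0.160. The mature T cell list had 10 of 14 genes at least 2-fold higher in KO ILC3s, with summed FPKM of 920 and 1360, and the mature B and plasma cell list 4 of 8 (3293 and 5088). The epithelial list had 7 of 9 higher (54.1 and 189) and the list of macrophages, monocytes and dendritic cells 5 of 8 higher and 2 lower (40.8 and 86.9). All these stand beside 16.6% higher and 12.7% lower over all measured genes, and the part of such cells in the values of the 4 genes was not tested.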

How the data were processed

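Tools named per the submitters' processing notes were Bowtie2, featureCounts, Subread, edgeR and DESeq2, with mm10 as build. The sources used here do not state their order, settings, versions or annotation. The authors deposited FPKM, per the file names, for 1 library per group, and joint tables equal to the single ones. The 2 pairs list different gene sets, so values were compared within a pair. Endou and the list genes called not analysed in a pair were not among the genes listed for that pair. Reads were recovered from FPKM times union exon length (GENCODE M21): 98.1% and 98.2% of values above 0 in the CD93 pair, and 91.8% (WT) and 91.6% (KO) in the other, were whole within 0.02 reads. Every gene with recovered reads had at least 10 over its pair. Ratios have 95% Clopper-Pearson intervals, and bounds use 3 reads. Differences are log2 with a pseudocount of 1; measured genes have an FPKM of at least 1. Recovery was tested on data simulated with the same gene lengths, which cannot show whether these lengths match the annotation the authors used. The members and the 15 gene lists were chosen with earlier results of these data known. Named genes were the members, list genes at least 2-fold apart or defining their list, the 12 most like, and 2 neighbours per side. Alternatives changed the pseudocount, filter, limit and scaling. Python 3.11.15, numpy 2.4.6, pandas 2.3.3 and scipy 1.17.1 were used. Some items are not reported here.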

Additional observations from a re-analysis of the deposited data

How the results depend on the processing

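No paired analysis was possible because each group is 1 library. A pseudocount cannot turn the sign of a log2 difference, so only the sizes are given; they moved with the pseudocount and the common sum. For Dntt, Ly6d, Endou and Myl10 in CD93-negative over CD93-positive ILC3s they were 7.23, 5.99, 6.27 and 6.25 with a pseudocount of 0.1, 2.34, 1.86, 1.33 and 1.82 with 5, and 6.32, 5.39, 5.11 and 5.50 with a common sum. For Dntt and Myl10 in KO over WT they were -5.42 and -5.16 with 0.1, -0.88 and -0.76 with 5, both then under 2-fold, and -3.05 and -2.82 with a common sum. Ly6d in KO over WT was -0.05, and 0.11 with a common sum, which moved the median of all genes to 0.17.

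Genes at least 2-fold higher and lower in CD93-negative ILC3s numbered 392 and 391 with a pseudocount of 0.1, 60 and 109 with 5, and 37 and 73 with a 3-fold limit; 732 were higher with a common sum and 127 with an FPKM of at least 5. Higher and lower in KO ILC3s were 499 and 322 with a pseudocount of 5, 908 and 611 with an FPKM of at least 5, and 920 and 636 with a 3-fold limit, against 2058 and 1569. The 9 higher immature thymocyte genes became 2 with a pseudocount of 5 or an FPKM of at least 5, 1 with a 3-fold limit, 19 with a common sum and, by counting intervals, 25 with 2 lower. Of 406 other list values over 58 results, 314 stayed within their limits and 92 moved. Single reads in the CD93-positive library limit the upper bounds of the ratios, and 1 library per group limits all comparisons.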
